A study of Mus musculus with 2 samples.

Results

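The miR-302/miR-367 cluster is a row of 5 microRNA (miRNA) hairpins, Mir302b, Mir302c, Mir302a, Mir302d and Mir367, on chromosome 3 of the mouse. The members were taken by gene identifier, as the rows of the deposited count tables that the GENCODE mouse annotation names Mir302a, Mir302b, Mir302c, Mir302d and Mir367. All 5 had a row among the 1973 miRNA gene rows. MicroRNA-seq, which reads RNA of the length of mature miRNAs, was made from the forebrain of healthy B6NCrl embryos at embryonic day 11.5 (E11.5). The series holds 1 group of 2 libraries, labelled biological replicates 1 and 2, with no treated or mutant group. Replicate 1 is pooled tissue of 109 embryos and replicate 2 of 88 embryos, males and females together, and the labels give both pools the same donor entry. Sense-strand counts on miRNA genes totalled 1281201 in replicate 1 and 1297647 in replicate 2. Levels are CPM, counts per 1e+06 of this total, and errors are SD over the 2 libraries.

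The cluster is known as the signature miRNA cluster of pluripotent cells, where the transcription factors OCT4 and SOX2 drive it as 1 shared primary transcript. Drosha cuts such a transcript into hairpins, and Dicer cuts each hairpin into a 5p and a 3p strand, either of which can be loaded into Argonaute. The loaded miRNA finds messenger RNAs through its seed, bases 2 to 8 from the 5′ end, and represses them. The miR-302 miRNAs are known to speed passage through the cell cycle in embryonic stem cells. In mice they are also known to act in the early neural epithelium, where loss of the cluster disturbs neural tube closure and the timing of differentiation.

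The mature RNAs of the members are shown first because the 3p strands of the Mir302 hairpins share their start, whereas miR-367 has a seed of its own. The sequences are those of RefSeq on GRCm38.p6, read 5′ to 3′, with the seed in capitals. Mir302a appears with its 5p strand only, and miR-302a-3p is neither shown nor compared here.
miR-302b-3p: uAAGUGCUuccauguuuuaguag
miR-302d-3p: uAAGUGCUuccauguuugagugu
miR-302c-3p: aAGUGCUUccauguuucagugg
miR-367-3p: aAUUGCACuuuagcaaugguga
miR-302b-5p: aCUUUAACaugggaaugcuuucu
miR-302d-5p: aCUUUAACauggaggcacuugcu
miR-302c-5p: gCUUUAACaugggguuaccugc
miR-302a-5p: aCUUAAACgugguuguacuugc
miR-367-5p: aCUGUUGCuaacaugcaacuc

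The 3p strands of Mir302b and Mir302d have the seed AAGUGCU. The hairpin of Mir302a holds the leading 18 bases of miR-302b-3p, these letters included. The annotated miR-302c-3p starts a base further along the same letters, so its seed by position is AGUGCUU, which no other mature mouse miRNA in the table has. On the 5p side, Mir302b, Mir302c and Mir302d share the seed CUUUAAC, which was found in no other gene, and Mir302a has CUUAAAC. Outside the cluster, the seed of miR-302b-3p and miR-302d-3p was found in 3 genes, Mir291a, Mir294 and Mir295, all hairpins of the miR-290-295 cluster of embryonic stem cells. The seed of miR-367-3p was found in 6 other genes, those of miR-25, miR-32, miR-92a, miR-92b and miR-363. A few of these relatives are shown so that the likeness can be read.
miR-294-3p: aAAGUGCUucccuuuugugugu
miR-291a-3p: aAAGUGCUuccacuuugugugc
miR-17-5p: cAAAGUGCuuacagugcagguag
miR-92b-3p: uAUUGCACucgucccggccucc
miR-25-3p: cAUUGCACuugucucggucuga

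The miR-17 family, from clusters known from dividing progenitors, carries the letters AAGUGC as well, but shifted by a base, so that its seed is AAAGUGC.

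The cluster spans 580 bases, chr3:127545228-127545807 on mm10, on the plus strand. It lies wholly within intron 8 of Larp7, a gene for a protein that binds the small nuclear RNA 7SK. Larp7 is transcribed from the minus strand, so the hairpins run against their host, and Mir367 ends 18 bases from the border of exon 8. Mir302b (ENSMUSG00000076252.1) stands at 127545228 to 127545301, Mir302c (ENSMUSG00000065482.1) at 127545363 to 127545430 and Mir302a (ENSMUSG00000065552.1) at 127545496 to 127545564. Mir302d (ENSMUSG00000065447.1) follows at 127545624 to 127545689 and Mir367 (ENSMUSG00000065413.2) at 127545733 to 127545807. The gaps between neighbouring hairpins are 61, 65, 59 and 43 bases. All reads of the members lay on the plus strand, with 0 counts on the opposite strand, which is that of Larp7.

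In both E11.5 forebrain libraries, 4 of the 5 members were well above the counting limit and Mir367 was not. Mir302d was the most abundant member, Mir302a and Mir302b followed closely, Mir302c had several-fold fewer counts, and Mir367 had 4 counts in replicate 1 and none in replicate 2. The members' summed share of the sense counts was 0.637% in replicate 1, with a 95% Wilson interval of 0.624 to 0.651%. Replicate 2 gave 0.791% (0.776 to 0.807%), and the mean was 0.714% ± 0.109 (SD, n = 2). All intervals and limits describe counting error alone and not the spread between libraries. PCR copies of a molecule are counted as separate reads, so the intervals can be too narrow. In pooled tissue of this kind, fewer cells that express a miRNA and less of it per cell cannot be told apart.

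Mir302d had 2779 counts in replicate 1 and 3665 in replicate 2, or 2169 and 2824 CPM. It ranked 79 and 66 among all miRNA genes in these libraries. Its mean was 2497 ± 463 CPM, rank 74 by the mean. Mir302a had 2559 and 3116 counts, or 1997 and 2401 CPM, and ranked 85 and 74. Mir302b had 2445 and 3031 counts, or 1908 and 2336 CPM, and ranked 87 and 75. These 3 hairpins stood close together in each library, and all 3 were higher in replicate 2. Mir302c had 379 and 457 counts, or 296 and 352 CPM, and ranked 170 and 157.

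Mir367 had 4 counts in replicate 1, or 3.12 CPM with a 95% Wilson interval of 1.21 to 8.03 CPM. Replicate 2 held 0 counts of Mir367, with a 95% Wilson interval of up to 2.96 CPM and a 3-count limit of 2.31 CPM. At this depth Mir367 was thus at the limit of detection, although its hairpin begins 43 bases after Mir302d ends. The hairpins of Mir302d and Mir367, the highest and the lowest member, are shown with the annotated mature strands in capitals.
Mir302d: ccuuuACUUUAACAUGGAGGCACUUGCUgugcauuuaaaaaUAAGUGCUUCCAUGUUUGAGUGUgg
Mir367: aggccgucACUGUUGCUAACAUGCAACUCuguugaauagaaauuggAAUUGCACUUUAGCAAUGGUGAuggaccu

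Both hairpins have 2 annotated mature strands. The deposited counts are per hairpin, so the 5p and 3p strands could not be counted apart.

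**Figure D1:**
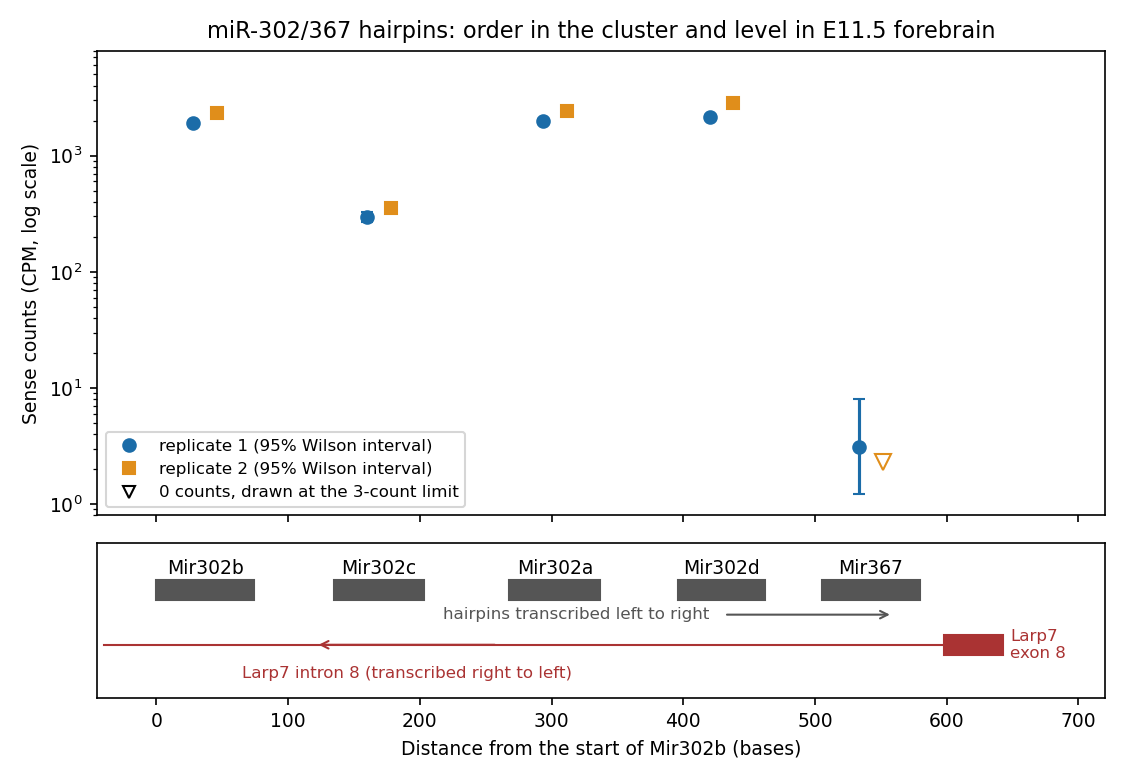
Upper panel, sense counts in CPM (log scale) of the 5 hairpins in replicate 1 (circles) and replicate 2 (squares) with 95% Wilson intervals, where the open triangle marks 0 counts and is drawn at 3 counts; lower panel, the hairpins to scale at their distance in bases from the start of Mir302b, with part of exon 8 of Larp7. Mir302b, Mir302a and Mir302d lie between 1908 and 2824 CPM, Mir302c between 296 and 352 CPM, and Mir367 at 3.12 CPM in replicate 1.

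The order Mir302d, Mir302a, Mir302b, Mir302c, Mir367 was the same in both libraries. Ratios between members of a library do not depend on scaling, and are given with exact Clopper-Pearson intervals. Mature strands are of like length, 21 to 23 bases, and counts were not divided by length. Mir302d over Mir302a had a log2 ratio of 0.12 (95% interval 0.04 to 0.20) in replicate 1 and 0.23 (0.16 to 0.30) in replicate 2. Mir302d thus led Mir302a beyond counting error in each library, by 0.18 ± 0.08 on the log2 scale in the mean (SD, n = 2), a small lead that differed between the libraries. Mir302a over Mir302b had a log2 ratio of 0.07 (-0.01 to 0.15) in replicate 1 and 0.04 (-0.03 to 0.11) in replicate 2, intervals that include equal levels. Mir302b over Mir302c had 2.69 (2.53 to 2.85) in replicate 1 and 2.73 (2.59 to 2.87) in replicate 2. The step from Mir302b to Mir302c was 6.53-fold in the mean, and was larger than the spread between the libraries (SD 0.03 on the log2 scale). The shares within the cluster were also steady. Mir302d made up 34.9% ± 1.17 of the members' counts, Mir302a 30.8% ± 0.703, Mir302b 29.7% ± 0.301 and Mir302c 4.55% ± 0.135 (SD, n = 2 each).

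Set against Mir367, the 4 Mir302 hairpins summed to 8162 counts in replicate 1 and 10269 in replicate 2. In replicate 1 this was 2040.5 times the count of Mir367 (95% interval 797 to 7491). In replicate 2 the 95% interval of this ratio began at 2783 and had no upper end. With 3 counts taken as the limit for Mir367 in that library, a limit of another kind, the ratio was at least 3423. The level thus did not follow the order along the chromosome. Mir302c, the second hairpin, was lower than both of its neighbours, and Mir367, the last, was lower than all others.

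How far reads of the members can be told apart bears on these levels, because reads with more than 1 match in the genome are tallied separately and enter no gene count. Such reads were 41.7% of the mapped reads in replicate 1 and 39.1% in replicate 2. The start of miR-302b-3p was compared with all miRNA hairpins of RefSeq and GENCODE. Its start of 18 bases also stands in the hairpin of Mir302a, and 19 of its 23 bases are needed to set it apart. For miR-302d-3p, 18 of 23 bases were needed, since 17 are shared with Mir302a and Mir302b. For miR-302c-3p, 17 of 22 bases were needed, since 16 are shared with the other 3. No such length was worked out for miR-302a-3p. Reads of these strands that stop short of that length would therefore fit more than 1 member. Both strands of miR-367 were set apart by their leading 12 bases. The hairpins of Mir302a and Mir302b share a stretch of 20 bases, and no other member shares such a stretch with any miRNA hairpin. The levels of the Mir302 hairpins can thus be too low by an amount that was not tested. This loss can differ between members, so their order and ratios, such as the small lead of Mir302d over Mir302a, can be affected too. No miRNA hairpin shared such a stretch with Mir367. The genome outside the miRNA genes was not searched.

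Among all miRNA genes, each of the more abundant members sat between genes of nearly the same mean level. Mir302d stood between Mirlet7d at 2504 ± 36.8 CPM and Mir341 at 2421 ± 57.1 CPM. Mir302a stood between Mir674 at 2219 ± 38.1 CPM and Mir337 at 2182 ± 80.7 CPM, and Mir302b between Mir337 and Mir188 at 2100.4 ± 24.4 CPM. Mir302c stood between Mir493 at 339 ± 39.3 CPM and Mir384 at 323 ± 1.48 CPM. The spread of the Mir302 hairpins between the libraries, from 39.9 CPM for Mir302c to 463 CPM for Mir302d, covered the distance to these neighbours, so their places in this order are not distinct. Mir367 stood between Mir7051, which had 0 and 5 counts, and Mir124a-1, with 3 and 1 counts. The count of Mir124a-1, a gene in numbered copies, can be too low, since reads that match several places enter no gene count.

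**Figure D2:**
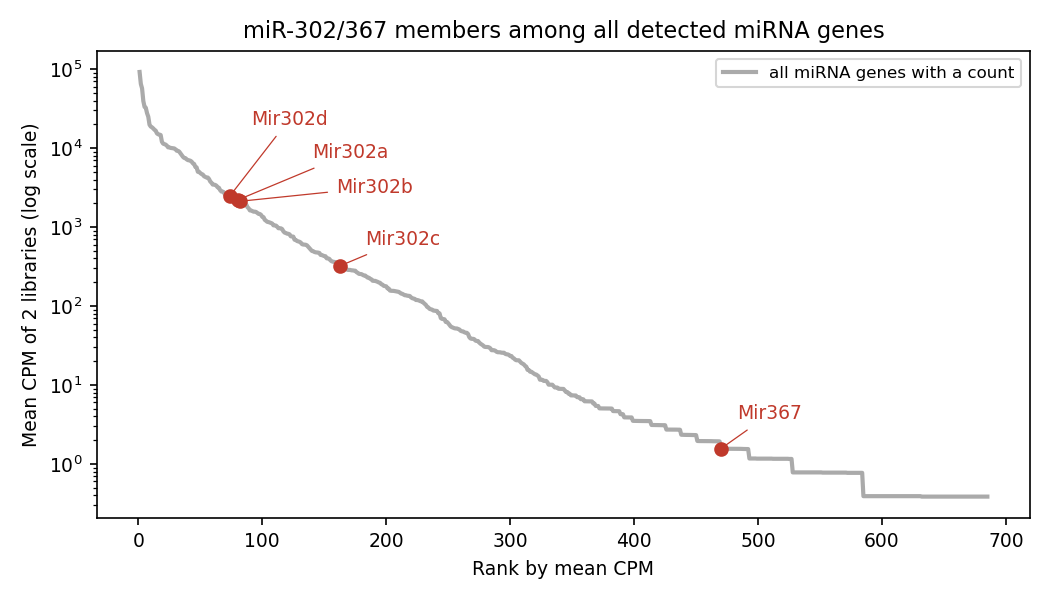
Mean CPM of the 2 libraries (log scale) against rank for every miRNA gene with a count (grey line), with the 5 members as red points. Mir302d, Mir302a and Mir302b stand at ranks 74, 80 and 82, Mir302c at rank 163, and Mir367 in the tail of genes with a few counts.

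The members were then set beside clusters and families that hold miRNAs with a related seed, on lists of genes made for this purpose. The 4 Mir302 hairpins far exceeded the miR-290-295 cluster, the other embryonic stem cell cluster. Of its genes, only Mir291a, Mir294 and Mir295 were found to have the seed of miR-302b-3p and miR-302d-3p. The Mir302 hairpins held 8162 counts in replicate 1, against 200 counts for all miR-290-295 genes with a row. In replicate 2 they held 10269 counts, against 198 for miR-290-295. The log2 ratio of the Mir302 hairpins over miR-290-295 was 5.35 (95% interval 5.15 to 5.56) in replicate 1 and 5.69 (5.49 to 5.91) in replicate 2, with a mean of 5.52 ± 0.24 (SD, n = 2). Mir302b and Mir302d together had 5224 and 6696 counts in replicates 1 and 2, against 90 and 92 for the genes with the same seed. The log2 ratio of these was 5.85 (5.56 to 6.18) in replicate 1 and 6.18 (5.89 to 6.50) in replicate 2. All 7 miR-290-295 genes with a row had a count. The highest were Mir294 with 62.8 ± 0.567 CPM, Mir293 with 52.3 ± 9.95 CPM, Mir292 with 27.6 ± 10.7 CPM and Mir291a with 6.20 ± 0.0560 CPM. The hairpins of Mir291a and Mir291b share a stretch of 20 bases, so the levels of both are uncertain. Mir290b and Mir292b had no row.

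The miR-17 family, with the shifted seed, was far more abundant than the cluster. The Mir302 hairpins had 8162 and 10269 counts in replicates 1 and 2, against 164807 and 194497 counts for the 6 genes of the miR-17 family. The log2 ratio of the Mir302 hairpins over the miR-17 family was -4.34 (-4.37 to -4.30) in replicate 1 and -4.24 (-4.27 to -4.21) in replicate 2. Mir17 had 65099 ± 8463 CPM, Mir20a 27745 ± 3763 CPM, Mir93 19797.5 ± 634 CPM and Mir106b 18344 ± 929 CPM. Of the counts of the Mir302 hairpins, miR-290-295 and the miR-17 family together, the Mir302 hairpins made up 4.86% ± 0.210 (SD, n = 2).

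For miR-367 the relation to its seed relatives was more uneven still. Mir367 had 4 counts in replicate 1, against 45127 counts for the 6 other genes with that seed, a share for Mir367 of 0.00886% (95% exact interval 0.00241 to 0.0227%). In replicate 2 it had 0 counts, against 39791 for the others, with a 95% exact interval of up to 0.00927%. The 3-count limit of this share was 0.00754%. Mir92b had 17079 ± 1908 CPM, Mir92-1 8202 ± 1030.4 CPM, Mir363 5009 ± 46.8 CPM and Mir25 1109 ± 70.9 CPM. The hairpins of Mir92-1 and Mir92-2 share a stretch of 20 bases, so their levels are uncertain.

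**Figure D3:**
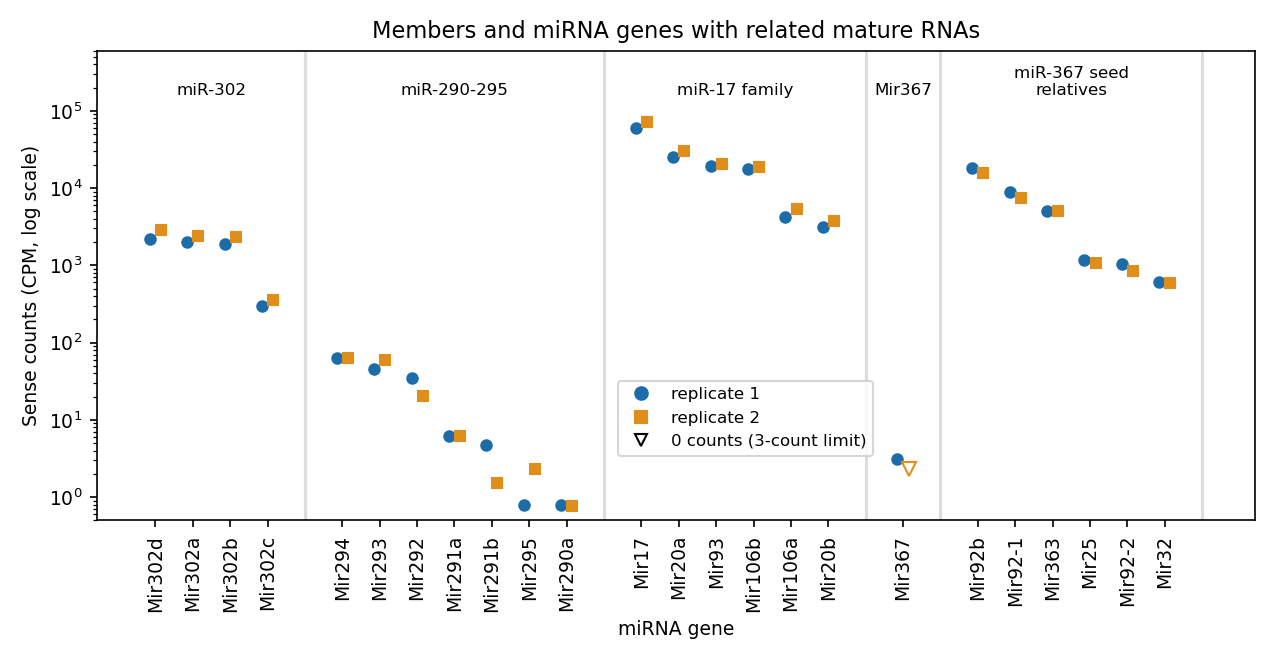
Sense counts in CPM (log scale) in replicate 1 (circles) and replicate 2 (squares) of the Mir302 hairpins, the miR-290-295 cluster, the miR-17 family, Mir367 and the other genes with the seed of miR-367; the open triangle marks 0 counts, drawn at 3 counts. The Mir302 hairpins lie above every miR-290-295 gene and below every gene of the miR-17 family, and Mir367 lies far below its seed relatives.

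The remaining question the design allows is how the members differed between the replicate pools. The 4 Mir302 hairpins were all lower in replicate 1 than in replicate 2, by similar factors. Mir302d had a log2 ratio of replicate 1 over replicate 2 of -0.38 (95% exact interval -0.45 to -0.31), Mir302b of -0.29 (-0.37 to -0.21), Mir302a of -0.27 (-0.34 to -0.19) and Mir302c of -0.25 (-0.45 to -0.05). These intervals overlap for every pair of members, which does not show that the ratios are equal. Mir302d over Mir302a had a log2 ratio of 0.12 in replicate 1 and 0.23 in replicate 2. Summed over the 5 members the log2 ratio was -0.31 (-0.35 to -0.27), which is 0.805 times the level in replicate 2.

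In a two-sided exact binomial test of the counts against the library totals, all 4 tested members were called lower in replicate 1, and 0 were called higher. The adjusted p was 1.24e-24 for Mir302d, 1.14e-12 for Mir302b, 4.78e-11 for Mir302a and 0.0452 for Mir302c (exact binomial test, Benjamini-Hochberg over 398 genes). Mir367 had too few counts to be tested. Among all 398 tested genes, which are not matched in depth to the members, 31 were called lower, or 7.79%, and 82 were called higher, or 20.6%. With TMM scaling this split became 52 lower and 54 higher. A 2-fold minimum was passed by 11 genes, or 2.76%, and by 0 members. The call of Mir302c was lost without the filter on low counts (adjusted p = 0.0771, exact binomial test). The test compares these libraries and covers counting error alone, whereas edgeR put the variation between the libraries at 10.3% beyond counting error, which is an SD of 0.21 for a log2 ratio. The edgeR exact test was run with an assumed biological coefficient of variation of 0.2, which is larger than the estimated 10.3%. At this setting 0 genes were called at an adjusted p under 0.05 and 13 passed an unadjusted p of 0.05. The unadjusted p of the members in this edgeR exact test ran from 0.278 to 0.457.

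Most genes averaging at least 100 counts, a set not matched in depth to the members, had a higher ratio than the members. The median log2 ratio was 0.07 over all 398 tested genes, 0.09 over those averaging at least 100 counts and -0.28 over the 4 tested members. Of 243 genes averaging at least 100 counts, 1 had a lower ratio than Mir302d, 6 than Mir302b, 12 than Mir302a and 13 than Mir302c. The 5 other genes of that depth with a ratio nearest to that of the summed members were Mir671 at -0.30, Mir19a at -0.30, Mir106a at -0.33, Mirlet7a-2 at -0.29 and Mir20a at -0.28. Likeness here rests on 2 libraries, so that many genes come close. Mir19a and Mir20a are hairpins of the Mir17hg transcript on chromosome 14, and Mir106a belongs to the paralogous cluster on chromosome X. Hairpins of these clusters differed in direction. Of the other Mir17hg hairpins, Mir17 at -0.27 and Mir18 at -0.15 were called lower. Mir92-1 at 0.26 was called higher, and Mir19b-1 at 0.07 was not called. In the chromosome X cluster, Mir20b at -0.27 was called lower and Mir92-2 at 0.32 higher. Mir18b at -0.11, Mir363 at 0.02 and Mir19b-2 at 0.37 were not called there.

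Grouping by the letters of the mature RNA, a grouping chosen after the values were seen, gave the following description. AAGUGC within the leading 9 bases was searched on the RNA strand and found in 19 of 1738 mature mouse miRNAs in the RefSeq table (1.09%). That table holds no miR-302a-3p, so other miRNAs with these letters can be missing from the group. Apart from the members, 9 genes with a miRNA found in this way had enough counts to be tested. Of these, 6 were called lower in replicate 1 and 0 higher by the exact binomial test, beside 7.79% lower and 20.6% higher over all tested genes. Those shares are not matched in depth to the 9 genes, and genes with more counts are called more readily. Each of the 6 averaged at least 4446 counts, the value of Mir20b. The genes called lower were the 6 of the miR-17 family, and their log2 ratios were -0.33 for Mir106a, -0.28 for Mir20a, -0.27 for Mir17, -0.27 for Mir20b, -0.10 for Mir106b and -0.07 for Mir93. Mir350 at -0.10 (-0.27 to 0.07), Mir294 at 0.02 (-0.44 to 0.48) and Mir291a at 0.02 (-1.59 to 1.63) were not called. The tested miR-290-295 genes outside the group were not called either. They were Mir292 at 0.80 (0.08 to 1.57) and Mir293 at -0.39 (-0.91 to 0.12). Of the 14 genes of 100 counts or more at or below the ratio of Mir302c, 4 were members, 4 were Mir17, Mir20a, Mir20b and Mir106a, and 6 were Mir671, Mir199b, Mir19a, Mir488, Mirlet7a-2 and Mir452. Several of these genes share a transcript and are not independent. Of the 6 seed relatives of miR-367, 3 were called higher in replicate 1 and 0 lower, beside the same 20.6% and 7.79% over all tested genes, which are not matched in depth to these relatives either.

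**Figure D4:**
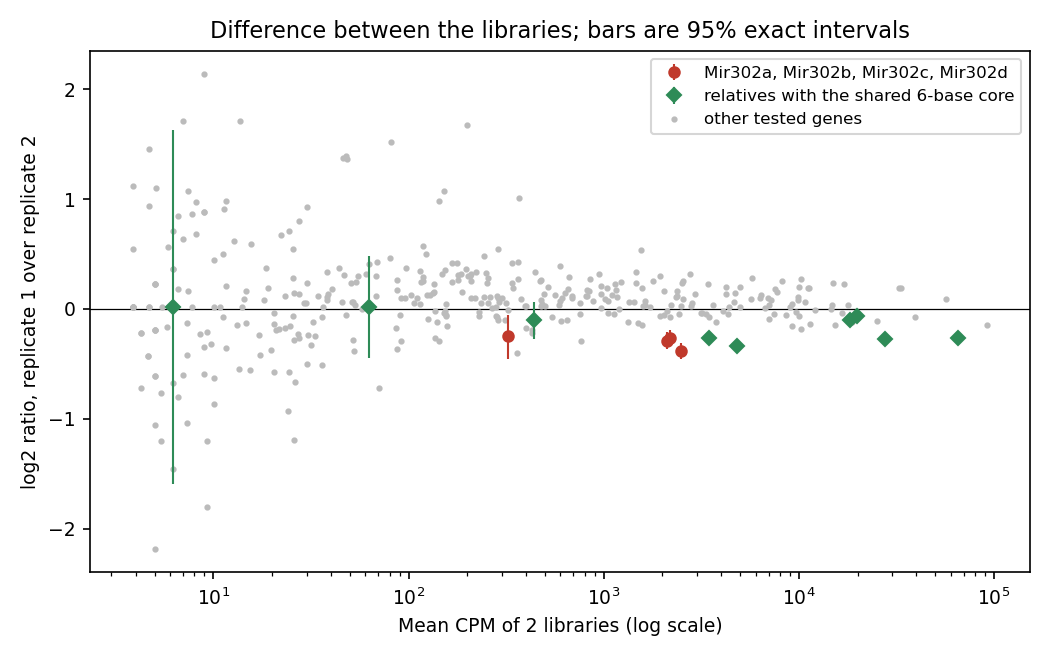
Log2 ratio of replicate 1 over replicate 2 against mean CPM (log scale) for the 398 tested miRNA genes, with 95% exact intervals for the members (red circles) and for other genes with a mature RNA in the RefSeq table that has AAGUGC within its leading 9 bases (green diamonds). The 4 Mir302 hairpins lie between -0.38 and -0.25, below most genes of the same level, and 4 of the diamonds, Mir17, Mir20a, Mir20b and Mir106a, lie between -0.33 and -0.27.

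Some lists of markers of other tissues held genes called different between the pools. Over all tested genes, 20.6% were called higher in replicate 1 and 7.79% lower, and the counts of each list stand beside these shares. The shares are not matched in depth to the lists, and genes with more counts are called more readily. The miRNA genes of the Hox loci, which are active in hindbrain and trunk, summed to 210 CPM in replicate 1, against 84.0 CPM in replicate 2, with Mir196a-1 at 0 among 6 genes, and 2 of 4 tested genes called higher in replicate 1. Striated muscle miRNAs had 253 and 134 CPM, with 4 of 8 genes with a row at 0 (Mir133b, Mir133a-1, Mir133a-2 and Mir1a-1). Of 4 tested genes, 2 were called higher, and Mir1a-2 had no row. Reads with more than 1 match in the genome enter no gene count, so genes in numbered copies can be counted too low. This applies to the Mir133a, Mir1a, Mir196a, Mir9 and Mir124a genes, where a count of 0 need not mean absence. The 3 erythroid miRNAs summed to 606 and 371 CPM, a difference carried by Mir451a with 493 and 244 CPM. The other erythroid genes were not called, with log2 ratios of -0.06 for Mir144 and -0.50 for Mir486. Endothelial Mir126a had 34601 and 30323 CPM and was called higher. The 7 epithelial miRNAs had 8297 and 7756 CPM, with 1 gene called higher and 1 lower. The 3 leukocyte miRNAs with a row had 759 and 761 CPM, with 0 called. Neural miRNAs, of which all 11 with a row had a count, summed to 40092 and 34513 CPM, with 4 of 9 tested genes called higher in replicate 1 and 0 lower. The part of any of these differences in the lower Mir302 levels of replicate 1 was not tested.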

How the data were processed

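The deposited files hold raw read counts per miRNA gene for both strands together, the sense strand and the opposite strand. The genome was mm10 and the annotation GENCODE M4, per the labels and the deposited notes. Which aligner and counter the authors ran is not given in the sources used here. Unassigned reads, in 4 rows, stayed out of totals and tests, and the sense counts were used. Symbols, positions and the host gene came from GENCODE M21, built on GRCm38 (mm10), which held 1894 of 1973 identifiers. Sequences came from RefSeq tables on GRCm38.p6, in which 927 rows were matched by symbol or position.

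The members and lists were chosen with earlier results of these data known. The text names all members, the gene next above and next below each by mean CPM, the 5 genes of 100 counts or more with the nearest ratio between libraries, and up to 4 members of each list of relatives. Genes of the AAGUGC group, those at or below the ratio of Mir302c and the marker genes were named after their values were seen.

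The 2 libraries were compared by a two-sided exact binomial test for the 398 genes with 10 counts or more in total, with Benjamini-Hochberg adjustment, a threshold of 0.05 and 0.5 counts added for the log2 ratio. The script was tested on simulated data. Dispersion came from edgeR 4.0.16 with TMM factors and an intercept-only design, and size factors from DESeq2 1.42.0. No group comparison exists, so the quasi-likelihood test had no contrast to test. Exact tests used scipy 1.17.1 and numpy 2.4.6, tables pandas 2.3.3 under Python 3.11.15, and edgeR and DESeq2 ran under R 4.3.3.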

Additional observations from a re-analysis of the deposited data

How the results depend on the processing

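The 4 Mir302 hairpins kept a lower level in replicate 1 under all 9 settings of the comparison between libraries, the one reported included, with log2 ratios from -0.45 to -0.38 for Mir302d, -0.36 to -0.29 for Mir302b, -0.33 to -0.27 for Mir302a and -0.32 to -0.25 for Mir302c. Some of these outcomes were fixed in advance. Adding 1 count could not change a call, and the filters could not change a ratio. The unstranded column changed only the total for the members, which had no counts on the opposite strand. The calls of the 4 Mir302 hairpins held with TMM factors, DESeq2 size factors, the unstranded column, a minimum of 50 counts and a total without the 10 most abundant genes. In the edgeR exact test with an assumed coefficient of variation of 0.2, above the estimate from these libraries, none was called. The ratios there were -0.45 for Mir302d, -0.36 for Mir302b, -0.33 for Mir302a and -0.32 for Mir302c. Without the filter Mir302c, at -0.25, was not called. The summed ratio was -0.38 with TMM and with DESeq2 factors and -0.36 without the 10 most abundant genes. The number of genes called lower was 52 with TMM, 52 with DESeq2 factors, 49 without the 10 most abundant genes and 0 in the edgeR exact test, and the number called higher was 54 with TMM and 0 in that test. Taking the 10 most abundant genes out of the total raised the levels, by construction, to 4250.3 CPM for Mir302d, 3741 for Mir302a, 3611 for Mir302b and 551 for Mir302c, and the members' share to 1.22%. The log2 ratio of the Mir302 hairpins over Mir367, with both libraries pooled and 0.5 counts added, was 12, and ran from 10.8 to 14.3 when a replicate was left out, where the higher value rests on 0 counts and the 0.5 added. No paired analysis was possible because the series holds 1 group. Depth limits statements on Mir367, and with 2 libraries no outlier could be tested.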
